A study of Mus musculus with 15 samples.

Results

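The proteasome genes described here are the mouse genes of the proteasome subunit families, chosen by their symbols alone as all symbols that begin with Psm, a letter from a to g and a digit, without those marked as pseudogenes. The rule found 50 genes of 43472 gene symbols and left out 4 pseudogenes, and the rule uses no measured value. The genes were followed in bulk RNA sequencing of extracellular vesicles (EVs), the membrane particles that cells release, from the blood of 3 groups of mice. WT-derived EVs (3 libraries) came from C57BL/6 mice, dystrophic (Dys)-derived EVs (6 libraries) from Sgcb null mice, which lack beta-sarcoglycan of the muscle membrane, and hypertrophic (Hyp)-derived EVs (6 libraries) from mice with enlarged muscle. The labels give the hypertrophic genotype as MAGIC F1, a designed factor that activates the Met receptor, whereas the study's methods give it as Mstn-null, so only the condition was used. The labels record no treatment in any group. By the study's methods the mice were 3 to 6 months old and each library held the EVs of 2 to 3 mice, so that a value is a mean over a small pool. The RNA had to be amplified first. The series text gives the source as plasma and the labels as serum.

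The proteasome degrades proteins that carry ubiquitin chains. Its 20S core is a barrel of alpha rings, which gate the entry, around beta rings, which hold the cutting sites, and the 19S regulatory particle binds, unfolds and feeds the substrates. In immune cells and under interferon, the catalytic beta subunits encoded by Psmb5, Psmb6 and Psmb7 can be replaced by those of the immunoproteasome, encoded by Psmb8, Psmb9 and Psmb10, which favour peptides for class I presentation. In skeletal muscle, protein loss in wasting runs in large part through this pathway.

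The exchange of subunits can be followed only if reads tell the partners apart. The 50 bases of coding sequence that begin at the codon of the catalytic threonine are shown for each pair because this residue cuts the substrate, with the codon in capitals, from the GENCODE M21 transcripts on GRCm38, the assembly of mm10.
Psmb5: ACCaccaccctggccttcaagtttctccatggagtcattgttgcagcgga
Psmb8: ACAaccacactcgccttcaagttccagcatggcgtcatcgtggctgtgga
Psmb6: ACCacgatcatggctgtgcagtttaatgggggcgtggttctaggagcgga
Psmb9: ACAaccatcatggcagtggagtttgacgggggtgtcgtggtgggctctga
Psmb7: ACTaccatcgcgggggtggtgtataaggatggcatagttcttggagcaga
Psmb10: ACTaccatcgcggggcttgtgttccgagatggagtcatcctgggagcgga
The windows of Psmb8 (chr17:34199302-34199351, plus strand), Psmb6 (chr11:70525885-70525934, plus strand) and Psmb9 (chr17:34185748-34185797, minus strand) lie in 1 exon. Those of Psmb5 (chr14:54616793-54617814), Psmb7 (chr2:38642253-38643384) and Psmb10 (chr8:105937569-105937705), all on the minus strand, run across an intron. Psmb5 and Psmb8 were identical at 39 of these 50 bases, Psmb6 and Psmb9 at 36, and Psmb7 and Psmb10 at 36. No stretch of 50 bases, the length of the reads, was shared by the transcripts of a pair. Other sequences were shared, however. Of the 50-base windows of Psmb5, 57.1% also occurred in another gene's transcript, which can cost the gene reads in counting, and 34.9% of the Psmb7 transcript is overlapped by exons of other genes, Nek6 among them.

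The depth per library ran from 27227 to 32563362 counts on genes, and a gene at 0, which still allows for 3 counts, had an upper limit of 0.0921 to 110 CPM (counts scaled to 1000000 gene counts), depending on the library. Such limits, and the 95% Wilson intervals given for shares, cover counting error only, since amplified copies are not independent molecules. WT replicate 1 held 27227 counts, WT replicate 3 601506, Hyp replicate 4 451013 and Hyp replicate 5 328710, and every other library more than 1000000. For 6 libraries, Dys replicates 4 to 6 and Hyp replicates 1 to 3, the library number in the title differs from that of the counts in a crossed way, and the main values by condition are also given with these labels exchanged. Platelet and red cell mRNAs were present throughout: Pf4, Ppbp and Gp9 of 6 platelet markers, and 5 of 6 erythroid markers, were counted in each. Of the EV markers, Cd9 was counted in all 15 libraries and Cd63 and Cd81 in at least 10. The muscle markers summed to at most 295 CPM in any library, and Myh4 was at 0 in all of them. Levels in pooled vesicles do not tell fewer EVs of a cell type from less RNA in each.

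**Figure D1:**
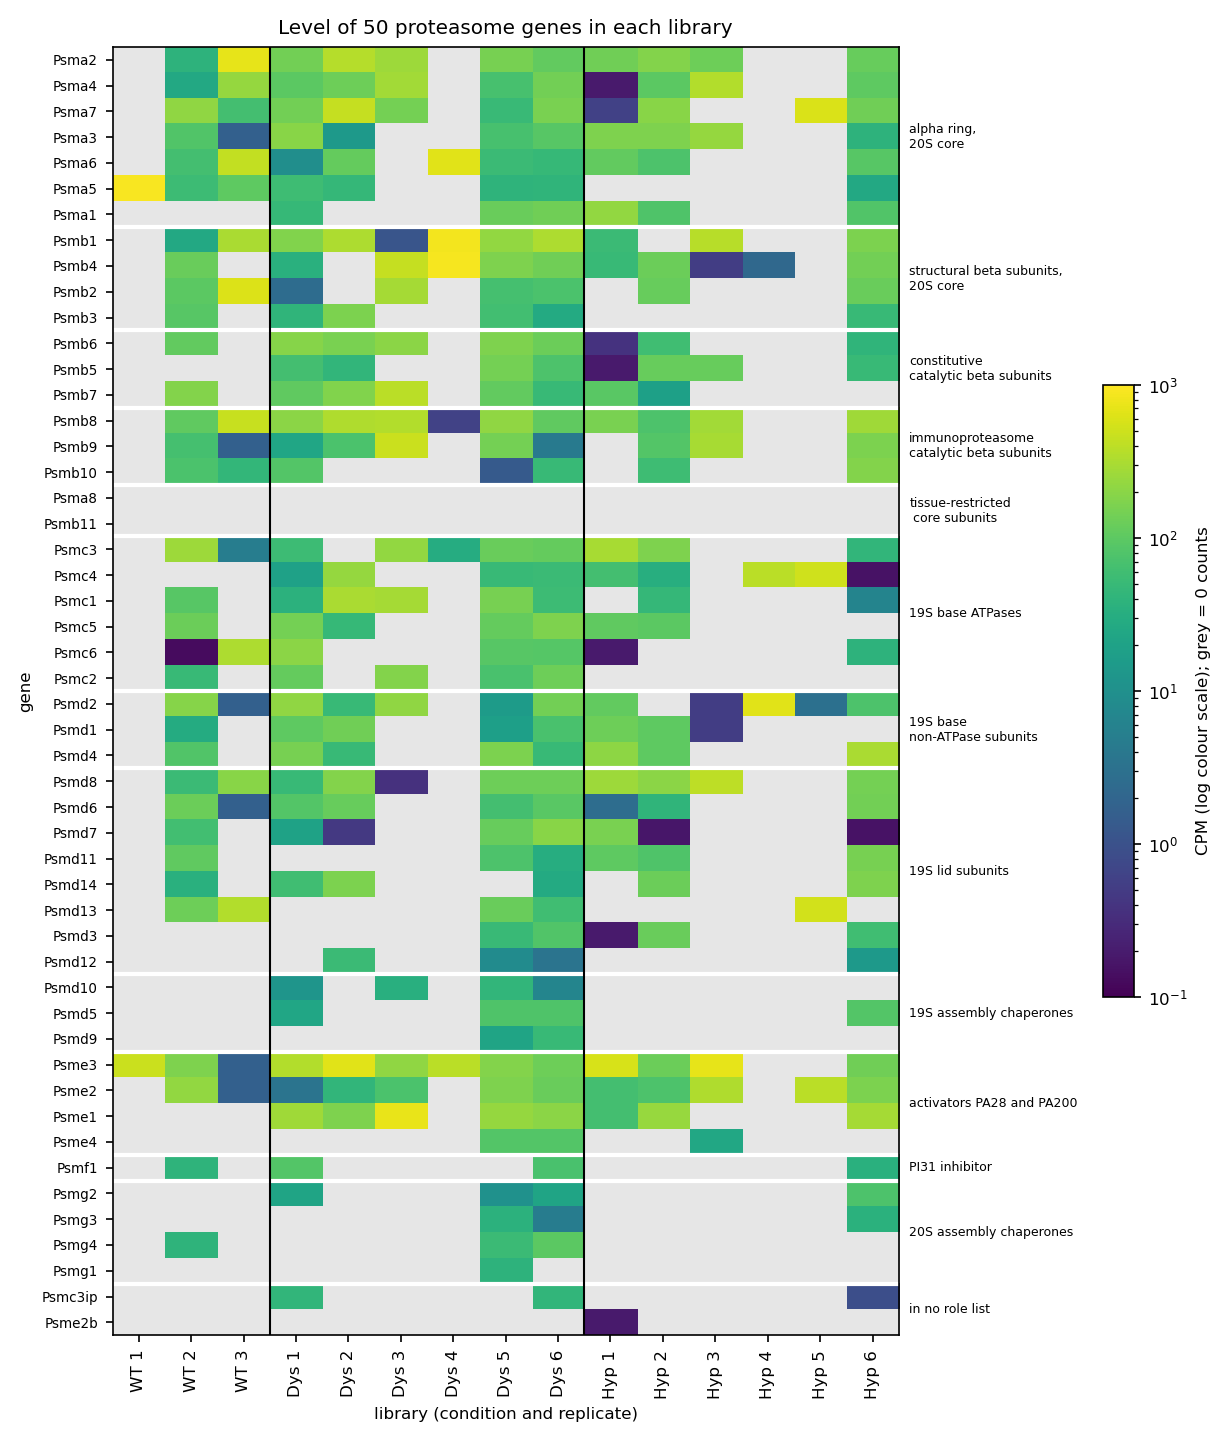
Level of the 50 proteasome genes (rows, grouped by role) in the 15 libraries (columns, black lines between conditions), as CPM on a logarithmic colour scale with 0 counts in grey. No gene is coloured in all 15 libraries, 400 of the 750 fields are grey, and Dys replicates 5 and 6 are the fullest columns with 44 and 46 genes.

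Proteasome mRNA was counted in every library, but as a different selection of genes each time. At least 1 count in at least 1 library was found for 48 of the 50 genes (96.0%), against 30.6% of all gene symbols. The genes at 0 throughout were Psma8, an alpha subunit of the testis, and Psmb11, a catalytic subunit of the thymic cortex. No gene was counted in all 15 libraries. Psme3, which encodes the nuclear activator PA28 gamma, came closest with 13 libraries, followed by Psmb8, Psmd2 and Psme2 with 12 each, and by Psma2, Psma4, Psma7 and Psmb1 with 11 each. In at least 8 of the 15 libraries, 26 of the 48 genes (54.2%) were counted, against 17.5% of all genes counted anywhere. The 48 genes followed 44 different patterns of presence over the libraries. The matching symbols outside the role lists were Psmc3ip, a meiotic recombination factor that is no proteasome subunit, in 3 libraries, and Psme2b, a copy of Psme2, with 1 count in Hyp replicate 1.

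A gene that was counted was mostly counted well. The 50 genes and 15 libraries form 750 pairs, of which 400 (53.3%) were at 0, 31 (4.13%) held 1 to 9 counts and 319 (42.5%) held 10 or more, 72 of them 1000 or more. Pairs at 0 were thus far more frequent than pairs with a few counts. Where the other libraries of the same condition predicted at least 10 counts, a proteasome gene was at 0 in 220 of 538 pairs (40.9%), and any gene in 51031 of 91260 pairs (55.9%). With at least 200 and under 1000 counts predicted, 39 of 180 pairs (21.7%) were still at 0, against 36.1% over all genes. In the Dys- and Hyp-derived libraries of at least 1000000 counts, the share was 35.2%, against 53.6% over all genes. The 24 genes whose transcripts share no 50-base window with another gene were at 0 in 108 of 254 such pairs (42.5%), and the 5 genes with over 50% of their windows shared in 17 of 47 (36.2%).

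The sparsest libraries show this gene by gene. Hyp replicate 4 held 480 proteasome counts, of which 303 came from Psmd2, the large scaffold subunit of the 19S base, 176 from the ATPase gene Psmc4 and 1 from Psmb4. Hyp replicate 5 held 667 counts from 5 genes, led by Psma7 with 198 and the lid gene Psmd13 with 175. WT replicate 1 held 38 counts, 25 of Psma5 and 13 of Psme3. Libraries of similar depth could differ widely, as Dys replicate 4, with 1608699 gene counts, held 6 of the genes, led by Psmb4 with 1442 counts and Psmb1 with 1356, whereas Dys replicate 1, with 1170610, held 38. Of all gene symbols, Dys replicate 4 counted 2.54% and Dys replicate 1 15.1%, so the difference was not confined to the proteasome genes.

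The summed proteasome level varied far less than the number of genes. The genes took 0.140%, 0.317% and 0.384% of the gene counts in WT-derived libraries (0.280% ± 0.126, SD, n = 3). In Dys-derived libraries the share ran from 0.281% over a median of 0.414% to 0.482% (0.403% ± 0.0719, SD, n = 6), and in Hyp-derived libraries from 0.106% over 0.308% to 0.375% (0.271% ± 0.0983, SD, n = 6). The ranges overlapped. Above every library of the other conditions were 4 of the 6 Dys-derived libraries, but 2 of 6 with the labels of the crossed libraries exchanged (means of 0.375% for Dys and 0.299% for Hyp) and 2 of 6 when mitochondrial and hemoglobin genes were left out of the counts. The means were then 0.380% for WT, 0.503% for Dys and 0.331% for Hyp. The highest share was 4.52 times the lowest, while depth differed 1196-fold and the number of genes 23.0-fold. The lowest share, 0.106% in Hyp replicate 4, has a Wilson interval of 0.0973% to 0.116%, and the highest, 0.482% in Dys replicate 3, one of 0.473% to 0.490%. No test was run on this sum over chosen genes.

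The levels of blood cell mRNAs overlapped between the conditions too. The 6 platelet markers summed to 9575 to 20524 CPM in Dys-derived libraries, against 18361 to 28281 CPM in WT- and 14290 to 32963 CPM in Hyp-derived ones. The 6 erythroid markers summed to 47060 to 155950 CPM in Dys-, 22902 to 88148 CPM in WT- and 29999 to 88291 CPM in Hyp-derived libraries. With the crossed labels exchanged, the platelet means turned from 14111 CPM for Dys and 25091 CPM for Hyp to 19478 and 19725 CPM. The erythroid means turned from 92308 CPM for Dys and 54806 CPM for Hyp to 70820 and 76294 CPM. The part of these mRNAs in the proteasome share was not tested.

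**Figure D2:**
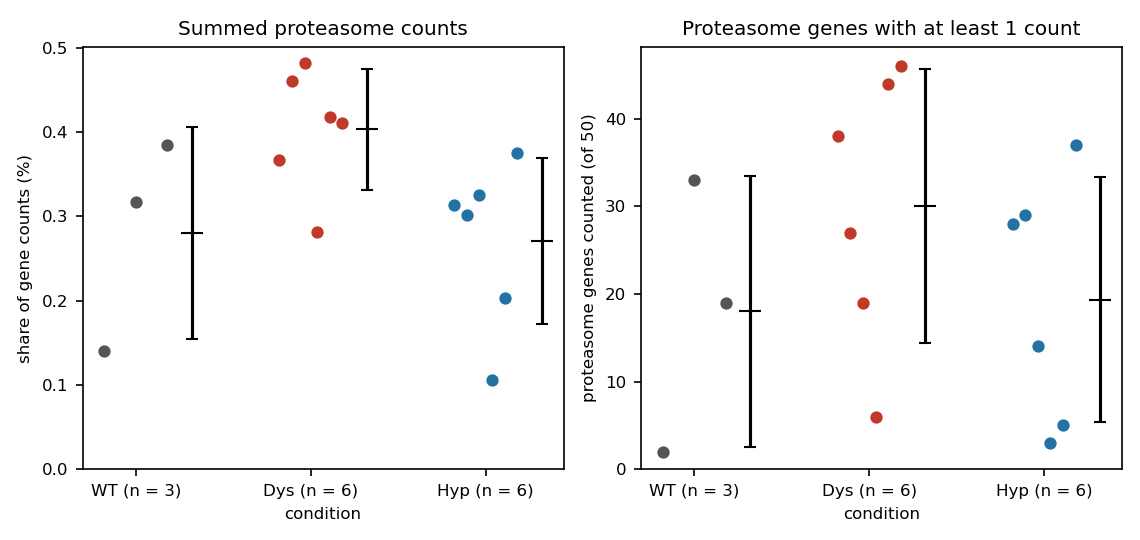
Left, share of gene counts that fell on the proteasome genes in percent; right, number of the 50 genes with at least 1 count; each point is a library and the bars beside the points are the mean ± SD of the condition. The shares lie between 0.106% and 0.482%, and the numbers between 2 and 46 genes.

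The number of genes counted was 2, 33 and 19 in WT-derived libraries (18 ± 15.5, SD, n = 3). It lay between 6 and 46 (median 32.5) in Dys-derived libraries (30.0 ± 15.6, SD, n = 6), and between 3 and 37 (median 21) in Hyp-derived ones (19.3 ± 14, SD, n = 6). The differences between these means were smaller than the spread within each condition, and with the crossed labels exchanged the means were 25.8 for Dys and 23.5 for Hyp. Without the 4 libraries under 1000000 counts the Hyp-derived mean was 27.0 genes (n = 4) and the single WT-derived library left held 33. When every library was sampled down to 27227 counts, the libraries still ranged from 2.0 genes in WT replicate 1 to 36.2 in Dys replicate 6. Over all libraries of a condition, 33 of the genes were counted in WT-, 47 in Dys- and 43 in Hyp-derived EVs, numbers that grow with the libraries pooled. Counted in every library of a condition were 2 genes for WT, Psma5 and Psme3, 3 for Dys, Psmb1, Psmb8 and Psme3, and 0 for Hyp. With the crossed labels exchanged, 43 of the genes were counted in any Dys- and 47 in any Hyp-derived library, and 6 and 0 in every one. The share of all gene symbols counted varied between libraries as well. It ran from 1.83% to 11.2% in WT-, 2.54% to 20.6% in Dys- and 1.87% to 13.1% in Hyp-derived ones.

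Libraries with few of the genes held each at a higher level. The median level of the genes with at least 10 counts was 698, 661, 531 and 519 CPM in WT replicate 1, Dys replicate 4, Hyp replicate 4 and Hyp replicate 5, which held 2, 5, 2 and 4 such genes. In Dys replicates 5 and 6, which held 43 and 46 such genes, it was 78.6 and 79.9 CPM. The values share their totals, so that a similar sum over fewer genes must give a higher level for each.

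**Figure D3:**
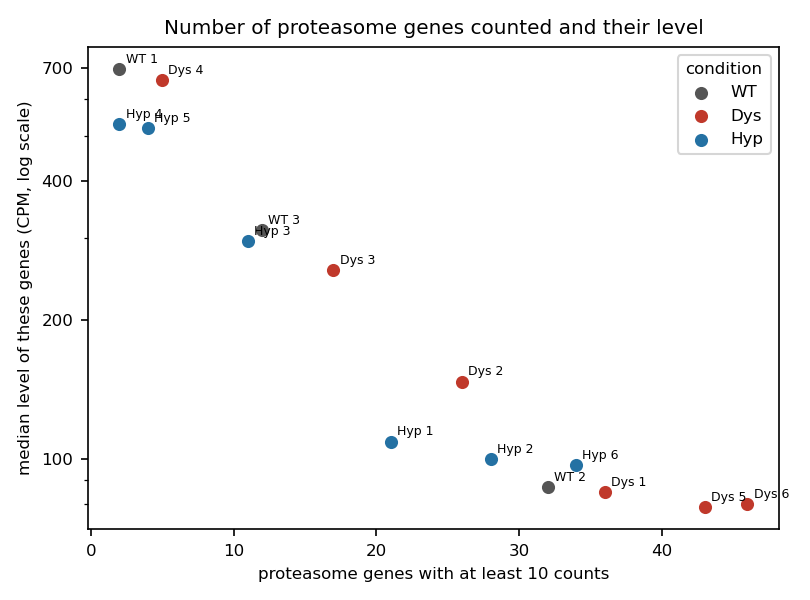
Median level in CPM (logarithmic axis) of the proteasome genes with at least 10 counts against the number of such genes, 1 point a library, coloured by condition. The level falls from 698 CPM where 2 genes were counted to 79.9 CPM where 46 were.

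The roles differed in how often their genes were counted. Genes of the 20S alpha ring were counted in 67 of 105 gene-library pairs (63.8%), the structural beta subunits in 60.0%, the 3 constitutive catalytic genes in 55.6% and the 3 immunoproteasome genes in 64.4%. In the 19S particle, the base ATPases, which unfold the substrate, were counted in 51.1%, the non-ATPase base subunits, which bind ubiquitin or form the scaffold, in 62.2%, and the 8 lid genes, among them the deubiquitinase gene Psmd14, in 45.0%. The activators PA28 and PA200, which open the core without ubiquitin, reached 60.0%. Apart from the tissue-restricted Psma8 and Psmb11, counted in 0 of 30 pairs, the sparsest were the assembly chaperones, which help to build the complexes without being part of them, with 22.2% for Psmd5, Psmd9 and Psmd10 of the 19S particle and 18.3% for Psmg1 to Psmg4 of the 20S core. Psmf1, which encodes the inhibitor PI31, reached 26.7%. Dys-derived libraries had the highest share in 10 of the 11 roles with counts, and in 6 of 11 with the crossed labels exchanged. This order was not particular to the proteasome genes. By the labels, up to 20.6% of all gene symbols were counted in a Dys-derived library, against up to 11.2% in WT- and 13.1% in Hyp-derived ones. The 19S chaperones were counted in 9 of 18 pairs in Dys-derived libraries, 0 of 9 in WT- and 1 of 18 in Hyp-derived ones, but with the labels exchanged in 3 of 18 in Dys- and 7 of 18 in Hyp-derived ones. For the 20S chaperones the numbers turned from 8 of 24 for Dys and 2 of 24 for Hyp to 1 of 24 and 9 of 24. The order of both conditions in these roles thus depends on the labels of the crossed libraries.

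Per kilobase of transcript, the highest mean levels over the 15 libraries were those of Psma7 (157 CPM per kilobase), Psme1 (133), Psmb4 (120) and Psme2 (115), and the lowest among the genes counted in more than 1 library those of Psmd9 (1.83) and Psme4 (2.01), which encodes PA200. Within the proteasome counts, the 20S core took 62.0% ± 17.6 (SD, n = 3) in WT-, 54.3% ± 16.5 (SD, n = 6) in Dys- and 35.3% ± 19.8 (SD, n = 6) in Hyp-derived libraries. The 19S particle took 21.6% ± 21.1, 25.5% ± 13.5 and 46.2% ± 29.6 in the same order. With the crossed labels exchanged, the 20S core took 48.2% in Dys- and 41.4% in Hyp-derived libraries, and the 19S particle 29.6% and 42.0%. Single libraries spanned nearly the whole scale, with a 20S share of 0.208% in Hyp replicate 4 and 85.4% in Dys replicate 4. No minimum of counts was set for these shares. WT replicate 1 entered with 38 proteasome counts from 2 genes, Hyp replicate 4 with 480 from 3 and Hyp replicate 5 with 667 from 5. The means without these libraries were not computed.

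The catalytic subunits, whose reads differ within each pair, could be compared in 11 libraries with at least 10 counts on the 6 genes. The immunoproteasome genes took 45.8% of these counts in WT replicate 2 (Wilson interval 44.3% to 47.3%) and 100% in WT replicate 3 (98.7% to 100%). Across 5 Dys-derived libraries they took 38.8% to 58.0% with a median of 46.3% (48.1% ± 7.18, SD, n = 5). In the 4 Hyp-derived libraries they took 62.2%, 52.7%, 82.9% and 87.1% (71.2% ± 16.5, SD, n = 4). The Hyp-derived mean was above the Dys-derived one by more than either SD, with overlap between Hyp replicate 2 and Dys replicate 3. With the labels of the 6 crossed libraries exchanged, the means were 58.9% for Dys and 57.4% for Hyp. Per kilobase the order of the means was kept, with 36.6% for Dys and, in single Hyp-derived libraries, 40.8% to 79.9%. The 7 leukocyte markers, 3 of them in all 15 libraries, summed to 1510 to 2681 CPM in WT-, 1180 to 3498 CPM in Dys- and 1535 to 5179 CPM in Hyp-derived libraries, with overlapping ranges. The 5 hepatocyte markers, none of them counted in more than 7 libraries, summed to 0 to 65.8 CPM in WT-, 0 to 156 CPM in Dys- and 0 to 2181 CPM in Hyp-derived libraries. By the labels, Ttr was counted in 4 and Serpina1a in 2 Hyp-derived libraries and in no other, whereas Alb, Apoa1 and Apoa2 were also counted elsewhere. Not all of the 4 libraries with Ttr have matching numbers, so its confinement to Hyp-derived EVs depends on the labels. With the crossed labels exchanged, the mean hepatocyte sum turned from 48.8 to 188 CPM for Dys and from 709 to 570 CPM for Hyp. The part of either cell type in the immunoproteasome share and in the other differences of Hyp-derived EVs was not tested.

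**Figure D4:**
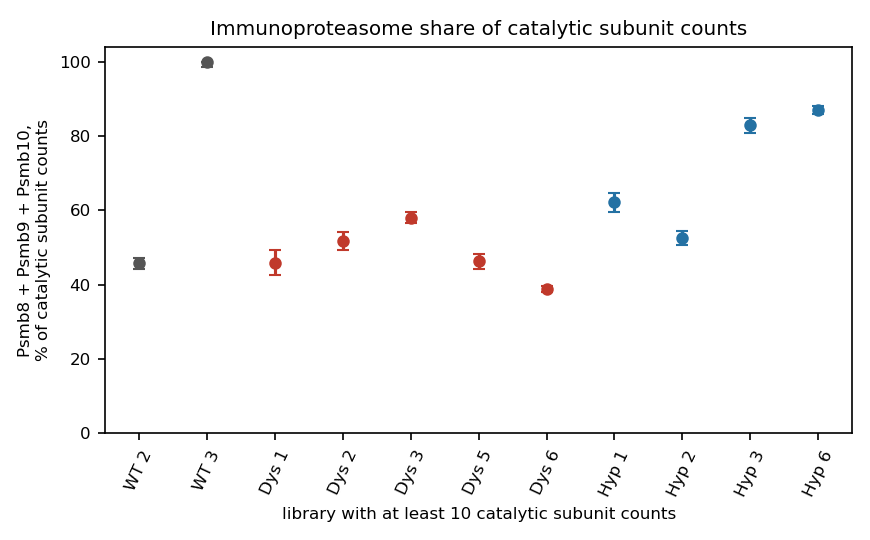
Share of the counts of the 6 catalytic subunit genes that fell on Psmb8, Psmb9 and Psmb10 in the 11 libraries with at least 10 such counts, in percent; bars are 95% Wilson intervals and colours mark the conditions (WT grey, Dys red, Hyp blue). The Dys-derived libraries lie between 38.8% and 58.0% and the Hyp-derived ones between 52.7% and 87.1%.

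For the chymotrypsin-like site, Psmb8 (ENSMUSG00000024338.15, chr17:34197721-34201454) was found with or without its constitutive partner and never the reverse. Psmb8 and Psmb5 (ENSMUSG00000022193.7, chr14:54614119-54618022) both had at least 10 counts in 7 libraries, Psmb8 alone in 4 and Psmb5 alone in 0. The level of Psmb8 was 0, 106 and 454 CPM in WT-derived libraries, 0.622 to 345 CPM with a median of 209 in Dys- and 0 to 280 CPM with a median of 117 in Hyp-derived ones. Psmb5 was at 0 in all 3 WT-derived libraries, one of which, WT replicate 2, held 822 counts of Psmb8. In Dys-derived libraries Psmb5 ran from 0 to 145 CPM with a median of 54.0 and in Hyp-derived ones from 0 to 119 CPM with a median of 25.2. The part of the shared windows of Psmb5 in its zeros was not tested.

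The caspase-like site gave a similar picture with less asymmetry. Psmb9 (ENSMUSG00000096727.3, chr17:34181987-34187764), which lies beside Tap1 and overlaps it, and Psmb6 (ENSMUSG00000018286.6, chr11:70525367-70527858) both had at least 10 counts in 8 libraries. At this minimum, Psmb9 was alone in 1 library and Psmb6 in 0. Psmb9 stood at 0, 66.7 and 1.66 CPM in WT-derived libraries, between 0 and 476 CPM (median 48.8) in Dys- and between 0 and 296 CPM (median 41.8) in Hyp-derived ones. Psmb6 stood at 0, 110 and 0 CPM in WT-derived libraries. Its median was 163 CPM in Dys-derived libraries, with 5 of the 6 between 127 and 203 CPM and Dys replicate 4 at 0, and 0.195 CPM in Hyp-derived ones, whose highest value was 59.8 CPM. Thus 5 of 6 Dys-derived libraries lay above every Hyp-derived one for Psmb6, but 2 of 6 with the crossed labels exchanged, when Hyp-derived values reached 169 CPM. The edgeR test described below did not call it.

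For the trypsin-like site, either partner was found without the other. Psmb10 (ENSMUSG00000031897.9, chr8:105935735-105938444) and Psmb7 (ENSMUSG00000026750.6, chr2:38588036-38644087) both had at least 10 counts in 4 libraries. At this minimum, Psmb10 was alone in 2 libraries and Psmb7 in 4. Psmb10 stood at 0, 74.6 and 44.9 CPM in WT-derived libraries, at 0 to 85.4 CPM (median 0.692) in Dys- and at 0 to 183 CPM (median 0) in Hyp-derived ones. Psmb7 stood at 0, 183 and 0 CPM in WT-derived libraries, at 0 to 391 CPM (median 109) in Dys- and at 0 to 94.5 CPM (median 0) in Hyp-derived ones. In Dys replicate 3, Psmb7 had 1048 counts and Psmb10 had 0, whereas in Hyp replicate 6 Psmb10 had 1184 counts and Psmb7 had 0.

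The 3 conditions were then compared gene by gene by the quasi-likelihood test of edgeR. Its filter on low counts left 6887 genes, 44 proteasome genes among them. Psma8, Psmb11, Psmc3ip, Psme2b, Psmd9 and Psmg1 did not pass. At a Benjamini-Hochberg adjusted p under 0.05, edgeR called 0 of the 44 genes between Dys and WT, where it called 0.0145% of all genes. Between Hyp and WT it called 0, against 0.0290% of all genes, and between Hyp and Dys 0, against 0.0145%. At an unadjusted p under 0.05 the numbers were 1 between Dys and WT (2.27%, against 2.02% of all genes), 4 between Hyp and WT (9.09%, against 8.02%) and 3 between Hyp and Dys (6.82%, against 12.0%). The median standard error of a proteasome gene's log2 fold change was 3.09, 3.02 and 2.51 in the 3 comparisons.

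The median log2 fold change of the proteasome genes was 1.06 between Dys and WT, where the median of all genes was 1.38, −0.02 between Hyp and WT (0.66 for all genes) and −0.54 between Hyp and Dys (−0.52 for all genes). Of the 44 proteasome genes tested, 11, 13 and 3 were at 0 in a whole condition. The share of all genes tested at 0 in this way was not determined, so these numbers show nothing particular to the proteasome. When the proteasome genes at 0 were set to the bound that their floors allow, 7, 7 and 0 of them had no bound and were left out. The medians over the remaining 37, 37 and 44 genes were 0.51, −0.32 and −0.54. The genes left out were at 0 in every WT-derived library, so leaving them out can lower the medians against WT. The medians of all genes were not set to such bounds and cannot be compared with these. The comparisons share libraries and are not independent of each other.

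DESeq2, run on the same genes as an alternative, gave more calls. It called 5 of the 43 proteasome genes with an adjusted p between Dys and WT (11.6%, against 21.1% of all genes), 7 between Hyp and WT (16.3%, against 24.5%) and 1 between Hyp and Dys (2.33%, against 5.17%). The 5 were Psmd3, Psmd5, Psme1, Psme4 and Psmg2, all of them at 0 in every WT-derived library. The 7 were these together with Psmc2 and Psmc4, and the 1 was Psmc2. Each of these genes was at 0 in all libraries of a condition in the comparison concerned.

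**Figure D5:**
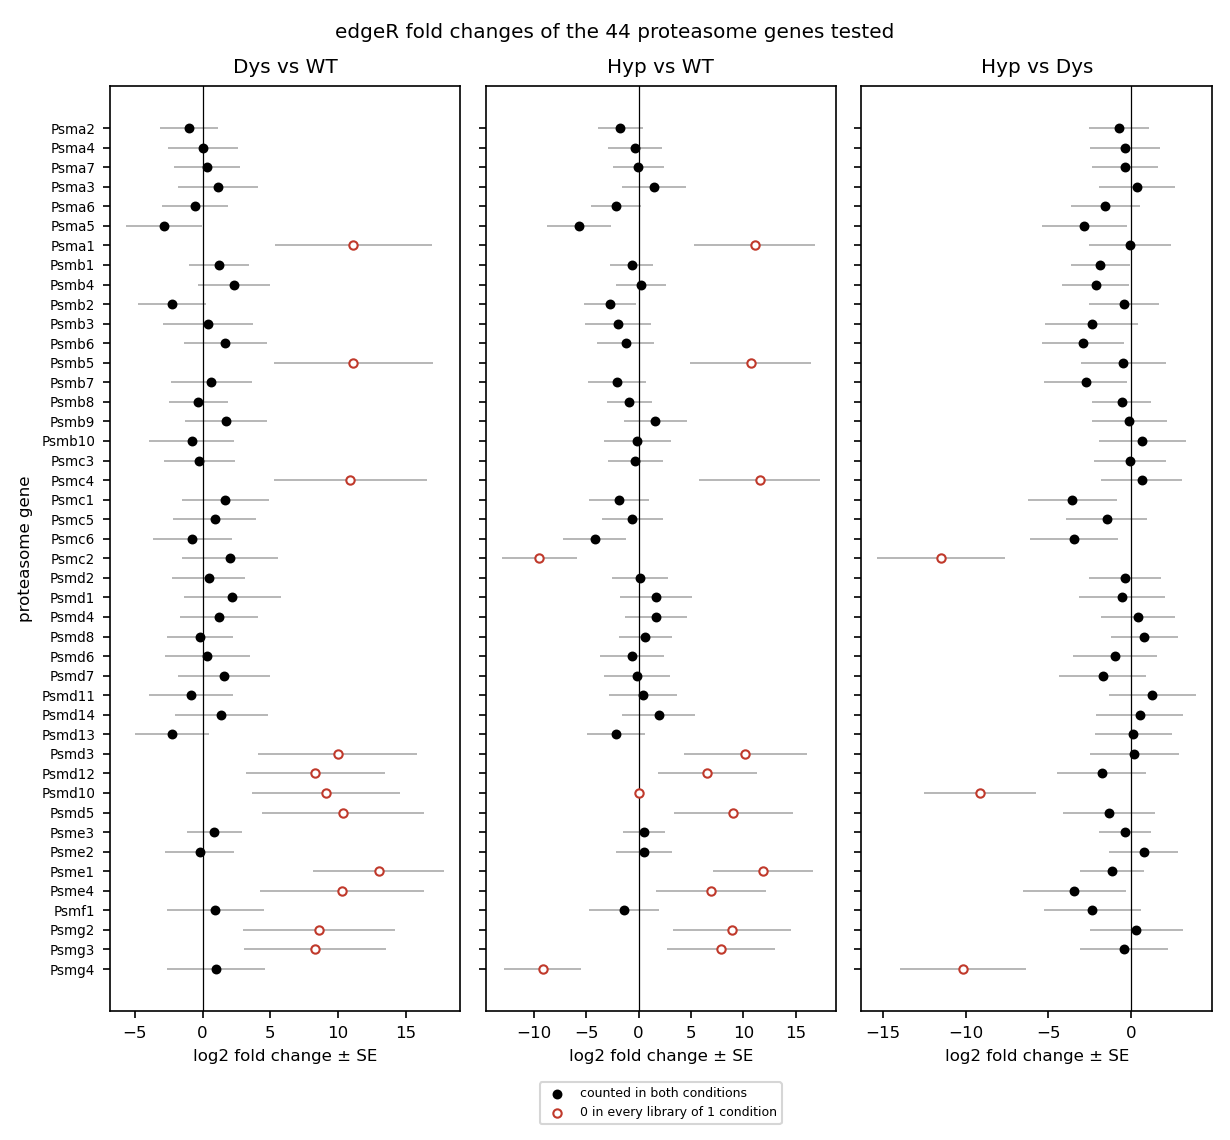
log2 fold changes with standard errors from edgeR for the 44 proteasome genes tested (rows) in the 3 comparisons (panels); open red circles mark genes at 0 in every library of a condition compared. None passes the adjusted threshold, and the points beyond 8 on the log2 scale are genes at 0 in a whole condition.

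The genes of smallest p in each comparison were genes at 0 throughout a condition, and their fold changes are given as bounds against 3 counts per library, a mean of 38.5 CPM for WT, 1.34 for Dys and 3.15 for Hyp. Such bounds cover counting error only. Of the proteasome pairs with 200 to under 1000 counts predicted, 21.7% were at 0, so a level above the floor can have gone uncounted. Psme1 (ENSMUSG00000022216.17, chr14:55578123-55581529) encodes PA28 alpha, the interferon-induced partner of PA28 beta in an activator of the core. It was at 0 in the 3 WT-derived libraries, at 0 to 746 CPM with a median of 216 in Dys- and at 0 to 293 CPM with a median of 32.2 in Hyp-derived ones. The means of 270 and 100 CPM were at least 7.0-fold and at least 2.60-fold above the WT floor. The adjusted p from edgeR was 0.433 between Dys and WT and 0.267 between Hyp and WT. The bound is wide because WT replicate 1 could have held 110 CPM unseen, whereas in WT replicate 2 the limit was 0.388 CPM. Psme2, which encodes PA28 beta, was counted in WT replicate 2 with 1725 counts, while Psme1 was at 0 there.

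Psmc4 and Psma1 followed Psme1 in the comparison of Dys with WT. The ATPase gene Psmc4 (ENSMUSG00000030603.16, chr7:28041707-28050101) was at 0 in WT-derived libraries, at 0 to 237 CPM (median 34.2) in Dys- and at 0 to 505 CPM (median 48.4) in Hyp-derived ones, at least 1.55-fold and at least 4.29-fold above the WT floor in the mean. The Hyp-derived mean rests mostly on the shallow Hyp replicates 4 and 5, at 390 and 505 CPM. In the other Hyp-derived libraries Psmc4 was at 64.8 CPM or less, and the bound without those replicates was not computed. The alpha ring gene Psma1 (ENSMUSG00000030751.18, chr7:114264606-114276118) was at 0 in WT-derived libraries and at 0 to 134 CPM (median 23.9) in Dys-derived ones, a mean at least 1.31-fold above the floor. Both had an adjusted p of 0.433 from edgeR. In all, 8 of the 48 genes counted (16.7%) were at 0 in all WT-derived and counted in at least 3 Dys-derived libraries, against 11.6% of all genes, namely Psma1, Psmb5, Psmc4, Psmd5, Psmd10, Psmd12, Psme1 and Psmg2. With the crossed labels exchanged they numbered 4 (8.33%, against 5.11%).

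Psmc2, Psmd10 and Psmg4 were at 0 in all 6 Hyp-derived libraries. Psmc2 (ENSMUSG00000028932.7, chr5:21785283-21803787) encodes an ATPase of the 19S base. It stood at 0, 49.9 and 0 CPM in WT-derived libraries and at 0 to 184 CPM with a median of 92.5 in Dys-derived ones, where 4 of 6 libraries held it. By the Hyp floor, which covers counting error only, the Hyp-derived level was at least 26.4-fold lower than the Dys-derived mean of 83.2 CPM (edgeR adjusted p = 0.123). By the same floor it was at least 5.27-fold lower than the WT-derived mean of 16.6 CPM (edgeR adjusted p = 0.267). The WT value rests on WT replicate 2 alone.

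Psmd10 (ENSMUSG00000031429.14, chrX:140948429-140956728), the chaperone gankyrin, ran from 0 to 42.9 CPM in Dys-derived libraries with a median of 9.31, and was at 0 in WT- as in Hyp-derived ones. Its Dys-derived mean of 15.7 CPM was at least 4.99-fold above the Hyp floor (edgeR adjusted p = 0.123). Psmg4 (ENSMUSG00000071451.10, chr13:34162964-34178173), a chaperone of 20S assembly, was counted in 3 libraries, at 40.3 CPM in WT replicate 2, 52.9 CPM in Dys replicate 5 and 96.6 CPM in Dys replicate 6. By the Hyp floor, its Hyp-derived level was at least 7.91-fold lower than the Dys-derived mean (edgeR adjusted p = 0.123) and at least 4.26-fold lower than the WT-derived one (edgeR adjusted p = 0.273). Psmc2 and Psmd10 were the 2 of the 48 genes (4.17%) at 0 in all Hyp-derived and counted in at least 3 Dys-derived libraries, against 4.60% of all genes. With the labels of the 6 crossed libraries exchanged, the log2 fold changes of Psmc2, Psmd10 and Psmg4 between Hyp and Dys turned from −11.50, −9.12 and −10.15 to 0.17, 0.95 and 10.15, so that the absence from Hyp-derived EVs depends on these labels.

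Beyond the subunits, 28 genes that act with the proteasome were followed, 22 of which passed the filter, and edgeR called 0 of them at an adjusted p under 0.05 in all 3 comparisons, against the 0.0145%, 0.0290% and 0.0145% of all genes. Unadjusted p-values under 0.05 were found for 1 of them between Dys and WT (4.55%, against 2.02% of all genes), 3 between Hyp and WT (13.6%, against 8.02%) and 2 between Hyp and Dys (9.09%, against 12.0%). The ubiquitin genes were the most widely counted. Rps27a, which encodes ubiquitin fused to a ribosomal protein, was present in all 15 libraries, at between 252 and 1320 CPM, and the polyubiquitin gene Ubb in 14, although it averaged 2.35 CPM ± 3.73 (SD, n = 3) in WT-, 407 ± 182 (SD, n = 6) in Dys- and 268 ± 135 (SD, n = 6) in Hyp-derived libraries (edgeR adjusted p = 0.433 and 0.430 against WT). The subunit genes missing from the symbol rule, Adrm1 and Shfm1, and the assembly factor gene Pomp were counted in 4 to 11 libraries. Of the 4 genes for class I peptide supply, none was in more than 7 libraries.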

How the data were processed

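Reads per gene were used as the authors deposited them, as raw counts per gene symbol for each of 15 libraries of EV RNA (3 WT, 6 Dys, 6 Hyp). The study's methods give single reads of 50 bases aligned with TopHat to mm10, and the submitters' processing notes add HTSeq and DESeq, while the annotation and the strand setting of the counting are not given in the sources used here. Amplification before sequencing and the counting of uniquely assigned reads can raise the spread and remove reads of genes with copies. The 5 summary rows that name no gene, 57.9% to 99.2% of a library, were dropped, and CPM were computed over the remaining rows. Depth ran from 27227 to 32563362 gene counts, and the libraries of a condition were treated as replicates, although no source says how the animals were divided. The mice per genotype that the study's methods give for plasma collection are too few for 6 separate pools of 2 to 3 mice. The 6 Dys- or 6 Hyp-derived libraries may thus share animals, and their SDs and p-values measure the spread between libraries, not between independent pools.

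Members and role lists were chosen with earlier results of these data known. Genes named with values were the 6 catalytic subunit genes, the 3 members of smallest p per comparison, members called by edgeR or counted in every library (0 of either), and members at 0 throughout by name. Psmd3, Psmd5, Psme2, Psme3, Psme4 and other genes beside counts were named after their values were seen. Conditions were compared by edgeR 4.0.16 under R 4.3.3 (TMM, filterByExpr, quasi-likelihood fit to all 15 libraries, 3 conditions, no covariate, Benjamini-Hochberg adjustment over 6887 genes). The procedure had to pass a test on simulated data only at a spread between libraries far below that of these data. The test does not show how many real changes the procedure would find here. Standard errors came from the F statistic. DESeq2 1.42.0 was an alternative, with 645 adjusted p-values left missing. The study's DESeq was not run. Wilson intervals used SciPy 1.17.1. The principal coding transcript of each gene, positions and 50-base windows came from GENCODE M21, in which 39483 of the 43472 symbols and all 50 members were found. Alternatives were other normalizations, filters and minimums, sampling down to 27227 counts (20 draws), crossed libraries exchanged or left out, and each library left out in turn. Counts per kilobase and the restriction to libraries of at least 1000000 gene counts were chosen after seeing the data, as was the exchange of crossed libraries for roles, catalytic genes, 20S and 19S shares and markers. Proteins were not analysed here.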

Additional observations from a re-analysis of the deposited data

Results flagged for a closer look

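Among 27 sets of Dys- or Hyp-derived values tested for a library far from the others (Dixon's criterion), 7 held such a library. In most of these 7 sets several libraries were at 0. Chance passes about 1 in 20 sets only where values are normally distributed, so the 7 cannot be set against that rate. In Hyp-derived EVs the flagged values were Psma1 with 224 CPM and Psmb7 with 94.5 CPM, both in Hyp replicate 1, and Psmb10 with 183 CPM in Hyp replicate 6. In Dys-derived EVs they were Psmb9 with 476 CPM and Psme1 with 746 CPM, both in Dys replicate 3, and Psmc4 with 237 CPM in Dys replicate 2. Psmb6 was at 0 CPM in Dys replicate 4 and between 127 and 203 CPM in the other Dys-derived libraries. Hyp replicate 1 is among the libraries with crossed numbers, as is Dys replicate 4.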

How the results depend on the processing

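Of 507 recomputed values, 451 kept their direction and side of the threshold or stayed within the spread. edgeR called 0 proteasome genes in every alternative fit and with any library left out, and DESeq2 5 (Dys against WT), 7 (Hyp against WT) and 1 (Hyp against Dys). Over all genes, in the same order, DESeq2 called 1315, 1528 and 323, and edgeR 0, 0 and 0 both without a filter on low counts and without mitochondrial and hemoglobin genes. Between Dys and WT it called 3 without TMM, 2 with crossed labels exchanged, 3 in the 9 libraries with matching numbers and 4 in the 11 libraries of at least 1000000 counts. Between Hyp and Dys these last 3 settings gave 0, 0 and 6. With a library left out, the counts were 1 to 2, 1 to 3 and 0 to 2. With crossed labels exchanged, the log2 fold change turned to 1.12 for Psmc2 and 1.0 for Psmg4 (Hyp against WT), and to 0.17 for Psmc2, 0.95 for Psmd10 and 10.15 for Psmg4 (Hyp against Dys). Without WT replicate 2, Psmc2 and Psmg4 were at 0 in both conditions and gave no value.

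The Dys-derived share of counts was 0.503% without mitochondrial and hemoglobin genes, and the Dys-derived immunoproteasome share 36.6% per kilobase and 58.9% with labels exchanged. The share of pairs at 0 was 35.0% with at least 50 counts predicted, 45.1% when predicted from all other libraries and 35.2% in the libraries of at least 1000000 counts. With a library left out, the WT-derived share of counts ranged from 0.228% to 0.350%, the genes counted from 10.5 (without WT replicate 2) to 26.0, and the immunoproteasome share from 45.8% to 100%, which rests on 2 libraries. In 4 libraries the depth limits detection to 4.99 CPM or more. No paired analysis was possible because the labels give no replicate numbers, which were assigned in accession order.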
